A study of Homo sapiens with 24 samples.

Results

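AAK1 was represented in this reporter assay by 28 single-nucleotide polymorphisms (SNPs) of its 3′ untranslated region (3′ UTR), taken as every row of the count table that names the gene. They gave 33 variants, because 23 SNPs were tested with 1 alternative base and 5 with 2. The set held 28 reference and 33 alternative oligos, or 61 of the 24780 oligos of the pool, which covered 1637 genes. The median gene had 4 SNPs, and 35 genes had more than AAK1. A reporter plasmid carried each fragment with either base, and the pool was transfected with a lipid reagent into SH-SY5Y, a human neuroblastoma line, and into a human microglia line immortalised with SV40. Neither line was treated otherwise, so the groups were DNA and polyadenylated RNA of each line, with 6 biological replicates per group and 24 libraries in all. Each cell type was 1 immortalised line, and the reporter was read from plasmids rather than from the AAK1 locus.

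AAK1, adaptor-associated kinase 1, is a serine/threonine kinase of the Numb-associated kinase family. It binds the clathrin adaptor complex AP-2 and phosphorylates its mu subunit, which strengthens the binding of AP-2 to cargo and thereby governs clathrin-mediated endocytosis, and it also phosphorylates the endocytic adaptor Numb. In neurons this route retrieves synaptic vesicle membrane and removes receptors from the cell surface. A 3′ UTR is the part of the mRNA after the stop codon, where microRNAs and RNA-binding proteins attach and alter mRNA stability, localisation and translation. The assay reads the RNA abundance of a reporter that carries a short stretch of such a region, not the level of AAK1 itself or the translation of its mRNA. The gene lies on the minus strand of chromosome 2, from 69457997 to 69643739 (RefSeq annotation of GRCh38.p14), a span of 185743 bases. The table names each SNP by its rs number and bases. Its position, the length of its fragment and whether neighbouring fragments overlap are not given in the sources used here, so fragments were not treated as independent of each other.

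The depth of a library was 16556722 to 19101103 counts for DNA and 11764547 to 18100832 for RNA of SH-SY5Y. For microglia it was 12154918 to 17570853 for DNA and 7018516 to 10437069 for RNA. AAK1 oligos took a median of 0.220% of the counts in SH-SY5Y DNA and 0.222% in SH-SY5Y RNA. In microglia the medians were 0.219% in DNA and 0.231% in RNA, with the highest DNA library at 0.229% and the lowest RNA library at 0.227%. The median AAK1 fragment varied between SH-SY5Y replicates by an SD of 0.50 in the log2 ratio of RNA to DNA, and between microglia replicates by 0.19. These SDs take the mean DNA level as fixed. In the fits of activity, which include DNA spread, the median standard error was 0.202 in SH-SY5Y and 0.145 in microglia. At the median, microglia values were thus the more precise.

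Some designed oligos were not measured. Both oligos of rs142704413 G>T, the alternative T oligo of rs67711978 and the reference T oligo of rs80330455 had 0 counts in every library. Over the 6 libraries of a group, a count of 0 allows up to 3 counts, which is 0.0279 CPM (counts scaled to a common library total) in SH-SY5Y DNA, 0.0346 in SH-SY5Y RNA, 0.0323 in microglia DNA and 0.0551 in microglia RNA (counting error only). The partner oligos of these SNPs were present but sparse: the A oligo of rs67711978 had a mean of 22.8 DNA counts in SH-SY5Y and 20.8 in microglia, and the G oligo of rs80330455 had 55.8 and 63.3. The reference A oligo of rs113538910 had a mean of 9.67 DNA counts in SH-SY5Y, under the minimum of 10 set for a test. Its 11.3 in microglia passed, but all 68 of its counts came from 1 DNA library. This left 29 of 33 variants tested for an allelic effect in SH-SY5Y and 30 in microglia, and 25 and 26 of 28 reference oligos tested for activity.

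Activity is the level of an oligo in RNA over its level in DNA, as log2. After scaling over the pool, 0 stands for a typical oligo. Most AAK1 reference fragments lay near it. The fitted median was 0.18 in SH-SY5Y, where the median over all reference oligos was 0.05, and 0.06 in microglia, against 0.02. In SH-SY5Y 1 of 25 fragments passed the test (4%, lower; edgeR's quasi-likelihood test, adjusted p under 0.05), against 8.73% of all reference oligos, and against 4.55% for the lower direction. In microglia 3 of 26 passed (11.5%), against 20.8% of all reference oligos. Of these, 2 were higher (background 8.47%) and 1 was lower (background 12.3%). These shares lie below or near the background of the pool. Of the alternative oligos, 1 of 31 passed in SH-SY5Y (background 9.27%) and 4 of 31 in microglia (background 21.3%), in a fit of all oligos together.

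The fragment of rs73934961 gave low reporter RNA with either base and in both lines, and was the only one of the set called in all 4 of these tests. In SH-SY5Y its reference A oligo had a lowest, median and highest level of 54.7, 56.7 and 61.7 CPM in DNA (with the library scaling factors of the fit) and of 30.0, 35.9 and 54.7 in RNA. All 6 replicate ratios were below 0, although the highest RNA library reached the lowest DNA library. Here and below, each ratio sets 1 RNA library against the same mean of the DNA libraries. The signs of the 6 ratios are therefore not independent of each other. The log2 activity was -0.59 ± 0.30 (SD, n = 6), or 0.664 of the typical level, with a 95% interval from -0.90 to -0.28 (edgeR adjusted p = 0.0161). In microglia the A oligo had 50.5, 57.8 and 62.8 in DNA and 29.3, 30.6 and 47.0 in RNA, so the groups did not overlap. Its activity there was -0.74 ± 0.28 (SD, n = 6), or 0.598 of the typical level, with an interval whose upper bound was -0.49 (edgeR adjusted p = 8.85e-06).

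The oligo with the alternative G at rs73934961 fell as well. In SH-SY5Y it had 66.2, 74.3 and 77.7 CPM in DNA and 31.0, 51.9 and 65.8 in RNA, without overlap, and an activity of -0.55 ± 0.42 (SD, n = 6; edgeR adjusted p = 0.0373). In microglia it had 56.1, 72.7 and 97.5 in DNA and 43.3, 52.2 and 64.2 in RNA, with some overlap, and an activity of -0.51 ± 0.20 (SD, n = 6; edgeR adjusted p = 0.000693). The allelic effect of A>G, log2 of alternative over reference in RNA minus the same in DNA, was 0.02 (95% interval -0.44 to 0.49) in SH-SY5Y and 0.26 (-0.08 to 0.60; adjusted p = 0.705) in microglia. The activity of the A oligo differed between lines by -0.17 (microglia minus SH-SY5Y), with an edgeR adjusted p of 0.823. The SH-SY5Y calls were the less firm: that of the A oligo was lost without replicate 1 (-0.57, edgeR adjusted p = 0.0521), replicate 4 (-0.54, 0.0712) or replicate 6 (-0.54, 0.0542), and with limma (-0.62, 0.0769). That of the G oligo was lost without replicate 1, 3, 4 or 5 (-0.58 to -0.43), with limma (-0.59, adjusted p = 0.123) and when ratios were centred on the median reference oligo (-0.49, adjusted p = 0.0530).

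With edgeR, higher reporter RNA passed the test for oligos of 3 SNPs, all in microglia. The fragment of rs77348643 did so with both bases. Its reference C oligo had 80.5, 84.1 and 103.7 CPM in microglia DNA (lowest, median, highest) and 102.5, 118.9 and 122.4 in RNA. The lowest RNA library lay just under the highest DNA library, and all 6 replicate ratios were above 0. The activity was 0.40 ± 0.10 (SD, n = 6), or 1.32-fold, with an interval from 0.23 to 0.56 (edgeR adjusted p = 0.000198). In SH-SY5Y the C oligo had 0.18 ± 0.17 (adjusted p = 0.242), and the difference between lines of 0.19 did not pass (adjusted p = 0.628). The T oligo of rs77348643 had 45.7, 70.9 and 86.5 in microglia DNA and 63.2, 89.5 and 99.3 in RNA, with overlap, and an activity of 0.34 ± 0.24 (edgeR adjusted p = 0.0237). That call was lost with DESeq2 (adjusted p = 0.107) and without replicate 1, 2 or 5 (0.21 to 0.32).

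For rs60797751 the reference C oligo was called higher in microglia. It had 36.6, 55.2 and 60.0 CPM in DNA and 52.7, 67.8 and 74.2 in RNA, with overlap, and 6 of 6 ratios above 0. Its activity was 0.33 ± 0.18 (SD, n = 6), or 1.26-fold, with an interval from 0.11 to 0.56 (edgeR adjusted p = 0.0281). The call was lost without replicate 1 (0.22, edgeR adjusted p = 0.204) or replicate 2 (0.29, 0.113). The T oligo of that SNP stood at 0.22 ± 0.08 in microglia. It did not pass with edgeR (adjusted p = 0.109) but passed with DESeq2 and with limma. In SH-SY5Y the C oligo was at 0.20 ± 0.26 (edgeR adjusted p = 0.376).

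For rs58179628 the alternative T oligo was called in microglia and the reference A oligo was not. The T oligo had 32.7, 43.9 and 63.2 CPM in DNA and 48.4, 65.9 and 74.5 in RNA. The ranges overlapped, and all 6 ratios were above 0, with an activity of 0.52 ± 0.22 (SD, n = 6; edgeR adjusted p = 0.00160). The A oligo was at 0.28 ± 0.16 (edgeR adjusted p = 0.132). The allelic effect itself, 0.24 ± 0.30, did not pass (edgeR adjusted p = 0.757). In SH-SY5Y the A oligo had 0.29 ± 0.72 and the T oligo 0.04 ± 0.32.

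For rs79183006 C>T the T oligo was called lower in microglia, while in SH-SY5Y the lower estimate belonged to the C oligo, which passed with DESeq2 and not with edgeR. In microglia the alternative T oligo had 48.9, 62.8 and 71.6 CPM in DNA and 35.1, 41.2 and 43.7 in RNA, with no overlap, and an activity of -0.58 ± 0.11 (SD, n = 6; edgeR adjusted p = 0.000146). The reference C oligo there was at -0.05 ± 0.30 (edgeR adjusted p = 0.880). In SH-SY5Y the C oligo was at -0.53 ± 0.50, below 0 in 6 of 6 replicates, and did not pass with edgeR (adjusted p = 0.0955), while the T oligo was at -0.08 ± 0.32 (0.799). The allelic effect was 0.47 ± 0.75 in SH-SY5Y (positive in 4 of 6 replicates; edgeR adjusted p = 0.709) and -0.54 ± 0.41 in microglia (negative in 6 of 6; edgeR adjusted p = 0.315). The difference between lines, -1.01, had an unadjusted p of 0.0137 and an edgeR adjusted p of 0.733, so neither the allelic effects nor their difference passed.

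The most extreme ratios of the set rested on few counts. The reference G oligo of rs73934956 had the highest fitted activity in both lines, 1.20 ± 1.02 in SH-SY5Y (edgeR adjusted p = 0.194) and 0.94 ± 1.20 in microglia (0.258), from means of 38.8 and 26.0 DNA counts. In SH-SY5Y the A oligo of rs67711978 followed with a fitted 1.00, from a mean of 22.8 DNA counts. Its replicate ratios ran from -5.36 to 2.74 with a mean of -0.83, so its direction is undetermined. The A oligo of rs113538910 had the lowest in microglia, -2.09 (edgeR adjusted p = 0.345). It had 0, 0, 68, 0, 0 and 0 DNA counts and 0, 0, 2, 6, 0 and 0 RNA counts in replicates 1 to 6. The mean of its replicate ratios, with a pseudocount of 0.5, was 0.59, so even its direction is undetermined. Over the tested fragments, the replicate SD was larger where the mean DNA count was lower (Spearman's rho of -0.78 over 25 fragments in SH-SY5Y and -0.61 over 26 in microglia; a description, over fragments that share libraries).

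The spread between AAK1 fragments was narrow for this pool. Taking the mean replicate ratio of each reference fragment, the SD between fragments was 0.36 in SH-SY5Y (25 fragments, from -0.83 to 0.96) and 0.30 in microglia (26 fragments, from -0.76 to 0.68). All reference oligos tested had SDs of 0.68 and 0.52. The -0.83 in SH-SY5Y was that of the sparse A oligo of rs67711978, whose fitted activity was 1.00, of opposite sign. Among SH-SY5Y fragments of at least 100 DNA counts the lowest was -0.62. Over RNA replicates, with the mean DNA level taken as fixed, the root mean square standard error of the fragments was 0.35 in SH-SY5Y and 0.26 in microglia. In SH-SY5Y this error was about as large as the spread. With fragments of at least 100 DNA counts the SD was 0.26 in SH-SY5Y (23 fragments; error 0.22) and 0.25 in microglia (23 fragments; error 0.092). In microglia the spread between well-counted fragments therefore exceeded this error, which leaves out the spread of the DNA libraries. The edgeR standard error of activity, which includes that spread, had a median of 0.145 over the 26 AAK1 fragments there. The SH-SY5Y value of 0.36 became 0.52 without replicate 2, 0.57 without replicate 4 and 0.68 without replicate 6, each over 26 fragments because the sparse A oligo of rs113538910 then passed the count minimum. Without replicates 1, 3 and 5, over 25 fragments, it was 0.29, 0.45 and 0.37.

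Among 363 genes with at least 10 tested reference oligos, 321 had a larger SD between fragments than AAK1 in SH-SY5Y, where the median gene had 0.59, and 292 had a larger one in microglia, where it was 0.44. By the distance between the median and the SD of both lines, the most similar gene was MAPT (0.0212, 20 oligos), which encodes the microtubule-binding protein tau. Next were BAIAP2 (0.0627, 14 oligos), an adaptor of actin and membrane curvature, and MAP2K5 (0.0629, 21 oligos), a kinase that activates ERK5. These distances are small beside the range of the AAK1 SD in SH-SY5Y without a replicate, 0.29 to 0.68. The ranking is therefore not firm.

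Activity of the reference fragments in both lines had a Pearson's r of 0.63 and a Spearman's rho of 0.37 over 25 AAK1 fragments. Without rs73934961 and rs73934956 the values were 0.35 and 0.19 over 23. Over all 10948 reference oligos they were 0.53 and 0.46. The reference oligo and the first alternative oligo of a SNP were also compared, with at least 100 DNA counts each. Here r was 0.06 and rho 0.21 in SH-SY5Y (23 SNPs), and 0.40 and 0.35 in microglia (22 SNPs). Without rs73934961 they were -0.03 and 0.13 in SH-SY5Y (22 SNPs), and 0.25 and 0.27 in microglia (21 SNPs). Over all SNPs the same comparison gave 0.56 and 0.47 in SH-SY5Y (9866 SNPs) and 0.79 and 0.62 in microglia (9765 SNPs). These are descriptions across fragments that share libraries and depth.

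The comparison of alleles asks whether a single-base change alters reporter RNA beyond the plasmid share of its oligo. No AAK1 variant passed in SH-SY5Y (0 of 29; edgeR adjusted p under 0.05), where 0.399% of all variants did, and none passed in microglia (0 of 30), where 1.74% did. DESeq2 also called 0 in each line, and limma called 0 in SH-SY5Y and 1 in microglia. At an unadjusted p under 0.05, edgeR gave 1 of 29 in SH-SY5Y (3.45%, background 8.73%) and 4 of 30 in microglia (13.3%, background 9.38%). The median size of the effect was 0.17 on the log2 scale in SH-SY5Y, against 0.25 over all variants, and 0.13 in microglia, against 0.17.

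The intervals bound the size of each effect. In microglia the 95% interval of the effect lay within -1 to 1, a 2-fold change in either direction, for 24 of 30 variants (80%, against 80.5% of all variants). In SH-SY5Y it did so for 16 of 29 (55.2%, against 52.8%). For the other variants the interval reached past a 2-fold change. Estimates were positive for 13 of 29 variants in SH-SY5Y and for 11 of 30 in microglia, and 15 of 29 had the same sign in both lines, or 51.7%, against 55.8% of all variants.

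The largest estimates in SH-SY5Y were all G>A changes with a lower alternative allele, and their RNA counts were scattered. For rs73934956 the alternative A oligo had 197, 224, 53, 59, 70 and 7 RNA counts in replicates 1 to 6, and the reference G oligo had 85, 162, 75, 23, 28 and 48. The A base made up 81.9% of the DNA counts and 59.2% of the RNA counts, and the effect was -1.86 ± 1.58 (SD, n = 6; 6 of 6 negative; edgeR adjusted p = 0.426). In microglia the effect was -0.10 ± 0.92 (edgeR adjusted p = 0.980).

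For rs114642339 the A oligo had 104, 11, 8, 3, 203 and 222 RNA counts in SH-SY5Y, while the G oligo had 827, 682, 328, 341, 339 and 406. The A oligo thus varied far more between replicates of the same line than the G oligo did. Its effect was -1.60 ± 2.57 (4 of 6 negative; edgeR adjusted p = 0.679), and in microglia it was 0.56 ± 0.50 (5 of 6 positive; 0.546). For rs73934957 the A oligo had 97, 88, 8, 170, 146 and 5 RNA counts. The effect was -1.40 ± 2.21 in SH-SY5Y (5 of 6 negative; edgeR adjusted p = 0.679) and -0.70 ± 0.95 in microglia (4 of 6 negative; 0.582), so both estimates were negative and neither passed.

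In microglia the smallest adjusted p belonged to rs73934954 G>A. Its A base rose from 39.8% of the DNA counts to 49.8% of the RNA counts in total, and the effect was 0.59 ± 0.38 (SD, n = 6; 6 of 6 positive; unadjusted p = 0.00778, edgeR adjusted p = 0.213). In SH-SY5Y the same variant was at 0.01 ± 0.58. The G oligo of this SNP stood at -0.29 ± 0.18 in microglia (edgeR adjusted p = 0.118) and the A oligo at 0.30 ± 0.26 (0.155), on either side of the typical level.

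For rs73934955 G>A the estimate was negative. The A base made up 38.6% of the microglia DNA counts and 27.8% of the RNA counts, with an effect of -0.73 ± 0.24 (6 of 6 negative). It did not pass with edgeR (adjusted p = 0.487) and passed with limma on the replicate log2 ratios (-0.73, adjusted p = 0.0187). That limma fit takes the mean DNA ratio as fixed, so its p leaves out the spread of the DNA libraries. Their log2 ratios of A to G ranged from -1.32 to -0.23, and those of the RNA libraries from -1.73 to -1.06. In SH-SY5Y the estimate was 0.42 ± 2.04 (edgeR adjusted p = 0.932). The remaining variant with an unadjusted p under 0.05 in microglia, beside rs79183006 described above, was rs113269105 C>T at 0.34 ± 0.32 (6 of 6 positive; edgeR adjusted p = 0.520). The largest estimate in microglia, -1.39 ± 2.14 for rs113538910 A>C (edgeR adjusted p = 0.900), rests on the A oligo whose DNA came from 1 library.

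At 5 SNPs both alternatives can be set against the same reference oligo, whose counts they share. For rs73934958 the effects of A and T were 0.07 ± 0.42 and 0.06 ± 0.74 in SH-SY5Y and -0.10 ± 0.16 and -0.16 ± 0.10 in microglia. For rs73934959 A and C gave -0.08 ± 0.88 and -0.09 ± 0.58 in SH-SY5Y, and 0.01 ± 0.19 and -0.08 ± 0.22 in microglia. At rs56752877 G and T gave -0.36 ± 1.07 and -0.24 ± 0.70, and then -0.05 ± 0.21 and -0.13 ± 0.19. None of these effects passed the test, whichever base was introduced (edgeR adjusted p from 0.782 to 0.990).

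The alternatives of rs7420531, G and T, gave -0.33 ± 1.84 and -0.02 ± 0.72 in SH-SY5Y and -0.14 ± 0.61 and 0.33 ± 0.18 in microglia. Only 2 of 6 SH-SY5Y replicates were negative for G, with a median replicate ratio of 0.32, against the sign of the estimate. The T base of rs7420531 was higher in 6 of 6 microglia replicates without passing (edgeR adjusted p = 0.754). For rs79085930, A and T were at -0.48 ± 0.71 and -0.32 ± 0.38 in SH-SY5Y, and at 0.02 ± 0.21 and 0.24 ± 0.19 in microglia (edgeR adjusted p from 0.656 to 0.986). Differences between the alternatives of a SNP were not tested.

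Differences between the lines were tested as interaction terms over all 24 libraries. These edgeR fits took a common replicate spread for both lines. The median replicate SD of AAK1 activity was 0.50 in SH-SY5Y and 0.19 in microglia. For allelic effects 0 of 29 AAK1 variants passed with edgeR, against 0.0462% of all variants, and 3 had an unadjusted p under 0.05 (10.3%, background 5.67%). These were rs79183006 C>T, given above, rs114642339 G>A, whose difference was 2.07 (unadjusted p = 0.0290, edgeR adjusted p = 0.806), and the T base of rs79085930, whose difference was 0.56 (unadjusted p = 0.0409, edgeR adjusted p = 0.846).

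For activity 0 of 25 reference fragments passed, against 0.986% of all reference oligos, and 2 had an unadjusted p under 0.05 (8%, background 10.8%). Both were lower in microglia (background of that direction 8.11%): the G oligo of rs73934954 by -0.56 (edgeR adjusted p = 0.242) and the C oligo of rs79085930 by -0.37 (0.314). DESeq2 and limma called 0 for either kind of difference.

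For context, 11 of 60 listed genes of clathrin-mediated endocytosis and the Numb-associated kinase family were in the pool beside AAK1. They were GAK, CLTA, PICALM, SNAP91, EPN2, ITSN2, SYNJ1, HIP1R, REPS1, CD2AP and SGIP1. None of their 73 variants passed the allelic test in either line or for the difference between lines. Of their 56 reference fragments, 1 was higher and 2 were lower in SH-SY5Y (5.36%, against 8.73% of the pool), and 4 were higher and 7 lower in microglia (19.6%, against 20.8%). These shares too lie near or below the background.

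HIP1R, which links clathrin coats to actin, gave the clearest of these fragments. The G oligo of its rs7138398 had an activity of -0.74 ± 0.22 in SH-SY5Y (edgeR adjusted p = 0.000140) and -0.76 ± 0.11 in microglia (9.87e-11), close to the reference fragment of rs73934961 in AAK1. The G oligo of its rs7958155 was at 0.66 ± 0.25 and 0.70 ± 0.09. SYNJ1, a phosphoinositide phosphatase that helps to uncoat vesicles, had a C oligo at rs114913358 with -0.59 ± 0.38 (edgeR adjusted p = 0.0204) and -0.38 ± 0.14 (0.00708). GAK, the other Numb-associated kinase in the pool, had 1 SNP, whose C oligo was at 0.26 in SH-SY5Y (edgeR adjusted p = 0.473) and 0.28 in microglia (0.140).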

How the data were processed

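The authors deposited unscaled counts for each oligo in each library, which were used as they stand. Tools named in the submitters' processing notes are cutadapt 2.7, UMI-tools 1.0.0, Bowtie2 and SAMtools 1.10, and the build named there is hg38. Per the labels' protocols, RNA carried a unique molecular identifier. Not given in the sources used here are the mapping settings, the strand of the alleles and whether DNA counts were collapsed. Oligos of a SNP differ by 1 base, so a read error there could move a count to the other allele.

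Here edgeR 4.0.16 (R 4.3.3) fitted quasi-likelihood models to all oligos or variants whose DNA counts averaged 10 or more over the libraries of the line. Allelic models held 2 columns per library, 1 for each allele, blocked by library. Activity used TMM scaling over all oligos. Benjamini-Hochberg adjustment ran over everything tested (threshold 0.05). The ± values are SDs over 6 RNA replicates against the mean DNA log2 ratio (pseudocount 0.5), and 95% intervals are approximate. DESeq2 1.42.0 and limma 3.58.1 were alternatives. The limma fits took the mean DNA level as fixed, so their p leaves out DNA spread, and their calls are not on equal terms with edgeR. Code was tested on simulated data. AAK1, the variants named (the 3 largest estimates per line, those past a threshold, and SNPs with 2 alternatives) and the endocytosis list were chosen with earlier results of these data known. The fit of alternative oligos was added after seeing the data.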

Additional observations from a re-analysis of the deposited data

Results flagged for a closer look

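Among 20 groups of 6 replicate values examined for the named AAK1 oligos and variants, 2 had a single replicate far from the others, and chance gives about 1 in 20. In microglia the T oligo of rs58179628 had a log2 activity of 0.12 in replicate 1 and between 0.52 and 0.74 in the other 5, so that the gap took up 0.647 of the whole range, above Dixon's 95% critical value. The T oligo of rs77348643 in microglia had -0.09 in replicate 6 and between 0.32 and 0.56 in the other 5, a gap of 0.643 of the range.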

How the results depend on the processing

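Depth and replicate spread limit most statements on AAK1 alleles, above all in SH-SY5Y and for oligos with few DNA counts. Allelic calls stayed at 0 in both lines and for their difference with DESeq2, with minimums of 1 and 100 DNA counts, with shared reads between the lines subtracted (added after seeing the data) and without each replicate. The exception was limma in microglia, with 1. Calls of reference fragments in SH-SY5Y numbered 1, and 2 with DESeq2 (the C oligo of rs79183006 beside the A oligo of rs73934961), 0 with limma and 0 to 1 without a replicate. In microglia they numbered 3, and 4 with DESeq2 (the G oligo of rs73934958 added), 7 with limma and 2 to 3 without a replicate. Calls of alternative oligos went from 1 to 2 with DESeq2, 0 with limma and 0 to 1 without a replicate in SH-SY5Y, and from 4 to 10 with limma and 3 to 6 without a replicate in microglia. The SD between fragments in SH-SY5Y ranged from 0.29 to 0.68 without a replicate. Among the named estimates followed over these settings, those that changed sign rested on few counts. They were rs113538910 A>C in microglia (0.58 without replicate 4, range -1.34 to 0.58) and its A oligo with limma (0.59). The difference between lines of the G oligo of rs73934956 did so too (0.08 without replicate 1 and 0.22 without replicate 2, range -0.71 to 0.22). In SH-SY5Y the A oligo of rs67711978, also sparse, was at 1.00 with edgeR and at -0.83 as the mean of its replicate ratios. The cause was not tested.

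The labels number replicates alike in every group. Same-numbered DNA and RNA libraries correlated by 0.023 to 0.069 in SH-SY5Y and by 0.021 to 0.056 in microglia (deviations from group means), against at most 0.0064 and 0.013 for other numbers. Same-numbered libraries of the 2 lines also correlated, by 0.030 to 0.073 for DNA and 0.048 to 0.098 for RNA (at most 0.0072 and 0.011 for other numbers). Every library thus correlated best with its own number, as a hint from the data, but at under 0.1. The link ran across the lines as well, and its cause was not tested. No method text used here states that same-numbered DNA and RNA libraries were paired, and the main fits did not pair them. With the replicate number as a block, AAK1 calls numbered 0 for alleles in both lines and their difference, 1 and 3 for reference fragments in SH-SY5Y and microglia, 0 for their difference, and 1 and 5 for alternative oligos. Over the whole pool the block moved the calls for the difference in activity from 108 to 66 and for the difference in allelic effect from 6 to 3. Pool-wide calls also depended on the tool. For alleles in SH-SY5Y they went from 52 to 349 with DESeq2, 14 with limma and 30, 34 and 33 without replicates 1, 2 and 4, and in microglia from 226 to 352 and 358. For activity in SH-SY5Y they went from 958 to 1643 and 316, and in microglia from 2280 to 3427 with limma. For the difference in activity they went from 108 to 214 with DESeq2, 184 with centring on the median oligo, 60 with total counts and 49 to 94 without a replicate. For the difference in allelic effect they went from 6 to 29 with DESeq2, 3 with at least 100 DNA counts and 2 to 8 without a replicate.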
